A study of Mus musculus with 12 samples.

Results

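The data are ChIP-seq peaks (stretches of DNA enriched by immunoprecipitation) of the transcription factor MAX in RAW264.7, an established mouse line of monocyte and macrophage character, with RANKL and without it. The members described here are the peaks of the 2 deposited MAX lists: 10889 peaks with RANKL and 8839 in untreated cells, 19728 of the 63578 peaks in the 8 lists of the series. The study has 12 libraries (MYC, MAX and input, each at 4 treatments), and the other treatments are the BET bromodomain inhibitor I-BET at 500 nM, alone or with RANKL. RANKL was given at 50 ng/ml for 4 h, fixation was 15 min in 1% formaldehyde, and reads were single-end and 50 bp long. Cells of both MAX libraries are the same line in the same medium, with no genetic change named in the labels. The line stands for monocytes on the way to osteoclasts and is 1 established line, not primary bone marrow, although bone marrow is named as its source.

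A peak of the RANKL list that shares at least 1 bp with an untreated peak is called kept, and one that shares none is called gained. An untreated peak without a partner in the RANKL list is called lost. The treatment protocol speaks of replicates, but the labels give 1 MAX library for each treatment, with 1 list, so no difference between them can be checked against replicates or given a p-value. Gained and lost are therefore statements about what was listed, not about what was bound. The read depth is unknown from the lists. Per row, a list gives a position, the names of the calls that were joined and a score that is the authors' own. The score times the number of joined calls was a whole number, as it would be for an average over these calls. No source used here states how the score was made. The score is used only to rank peaks within their list, and a rank percent runs from 0 for the highest score to 100 for the lowest. Every row joins calls from 3 call sets, of a kind that no source used here explains, so whether they stand for replicates is unknown. No row of either list lacks any of the 3. A gained or lost peak may thus have been called in fewer than 3 sets of the other treatment, which the lists do not show. Call numbers reached, depending on the set, 13682 to 16034 with RANKL and 10410 to 12541 in untreated cells.

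MAX is a small basic helix-loop-helix leucine zipper protein that has no strong activating or repressing domain of its own. It pairs with MYC, which activates transcription, with the MXD proteins, MNT and MGA, which repress, or with itself. The pairs recognise the E-box, whose preferred core is CACGTG. RANKL is the cytokine that turns monocytes into osteoclasts, the cells that dissolve bone. Its receptor RANK recruits the adaptor TRAF6 and switches on NF-kB, MAP kinases and, with help from costimulatory receptors, the calcium-dependent factor NFATc1.

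The E-box stands in promoters under peaks of every kind, and the stretches below show it in its context. They come from the RefSeq promoter windows of GRCm38.p6, the same assembly as mm10, which hold 250 bases before to 50 after a transcription start. The windows named here are those whose peaks rank highest within the gained or lost and within the kept set among the genes named, and the CACGTG core is in capitals. Each is written 5′ to 3′ on the strand of the gene.
Fam167b, gained, chr4:129578564-129578629, minus strand: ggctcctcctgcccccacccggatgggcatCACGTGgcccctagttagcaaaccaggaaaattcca
Mtx3, gained, chr13:92844697-92844762, plus strand: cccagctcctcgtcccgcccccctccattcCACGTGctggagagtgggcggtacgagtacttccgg
Ipp, gained, chr4:116507299-116507335, plus strand: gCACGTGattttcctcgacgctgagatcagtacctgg
1110059E24Rik, lost, chr19:21652820-21652885, minus strand: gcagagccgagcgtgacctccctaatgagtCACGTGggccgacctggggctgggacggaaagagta
Farsb, kept, chr1:78488901-78488966, minus strand: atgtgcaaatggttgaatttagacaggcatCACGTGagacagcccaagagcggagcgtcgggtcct
Pes1, kept, chr11:3963947-3964004, plus strand: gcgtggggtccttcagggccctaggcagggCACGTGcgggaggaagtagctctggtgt
Timm9, kept, chr12:71136698-71136763, minus strand: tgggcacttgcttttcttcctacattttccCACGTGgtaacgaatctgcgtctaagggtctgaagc
Ran, kept, chr5:129020008-129020073, plus strand: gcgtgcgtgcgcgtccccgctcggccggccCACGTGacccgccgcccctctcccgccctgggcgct

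Gained peaks in this set stood far below the kept ones in rank. The peak of Fam167b held rank 1888 in the RANKL list and that of Mtx3 (metaxin 3, of the mitochondrial outer membrane) rank 1932. Ipp, a kelch protein, held rank 2093. The lost peak shared by 1110059E24Rik and Abhd17b (a depalmitoylating enzyme) held rank 1808 in the untreated list. Among the kept peaks, Farsb (phenylalanyl-tRNA synthetase, beta subunit) held rank 12 with RANKL and 20 in untreated cells, and Pes1, which matures the large ribosomal subunit, held 50 and 40. Timm9, a carrier chaperone of the mitochondrial intermembrane space, held 64 with RANKL and 121 in untreated cells. Ran, the GTPase of nuclear transport, held 71 and 59 in the same order. The core lay 14 bp from the midpoint of the peak at Fam167b, 23.5 bp at 1110059E24Rik and 6.5 bp at Farsb, and 209 bp at Ipp, which was the farthest of the 8. Added after their values were seen are the promoters of Plcg2, a phospholipase that RANK and its costimulatory receptors use to raise calcium, and of Rufy1, an endosomal protein.
Plcg2, gained, chr8:117498225-117498290, plus strand: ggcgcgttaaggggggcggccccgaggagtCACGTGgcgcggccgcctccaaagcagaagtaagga
Rufy1, lost, chr11:50431096-50431151, minus strand: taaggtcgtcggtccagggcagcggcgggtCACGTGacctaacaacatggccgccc
The Plcg2 peak held rank 3336 in the RANKL list, with the core 246 bp from its midpoint. The Rufy1 peak held rank 2672 in the untreated list, with the core 3.5 bp from the midpoint.

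Of the 10889 peaks with RANKL, 3700 had no untreated partner (34%) and 7189 were kept. Of the 8839 untreated peaks, 1591 were lost (18%) and 7248 overlapped a RANKL peak. The RANKL list is the longer one, which by itself leaves more of its peaks without a partner. Between equal numbers of top-ranked peaks, 8839 from each list, 2326 were gained and 2253 lost, and lists of equal length must give nearly equal counts. A peak whose partner fell below the cut counts there as unmatched. Ranges in brackets after a share are exact 95% intervals (Clopper-Pearson) for counting error and nothing else. The 2 lists were unevenly matched in few places: 111 RANKL peaks overlapped 2 untreated peaks and 3 overlapped 3, while 58 untreated peaks overlapped 2 RANKL peaks. Near misses were rare. Within 250 bp of an untreated peak lay 98 of the gained peaks (2.65%), and within 250 bp of a RANKL peak lay 46 of the lost peaks (2.89%).

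Whether a peak was listed in both treatments went with its rank. Each list was divided in order of score into 10 equal classes, class 1 with the highest scores. In class 1 of the RANKL list 3 of 1088 peaks were gained (0.276%, 0.0569 to 0.804), and in class 10 it was 756 of 1089 (69.4%, 66.6 to 72.1). In the untreated list 0 of 883 peaks in class 1 were lost, for which the exact upper bound is 0.417%, against 385 of 884 in class 10 (43.6%, 40.3 to 46.9). Each class in between had a larger share than the one above it, in both lists. Gained peaks had a median rank percent of 73.5 (72.4 to 74.4) and kept peaks one of 35.7 in the same list. Lost peaks had a median of 76.6 (74.9 to 78.0), against 42.8 for the kept peaks of the untreated list.

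**Figure D1:**
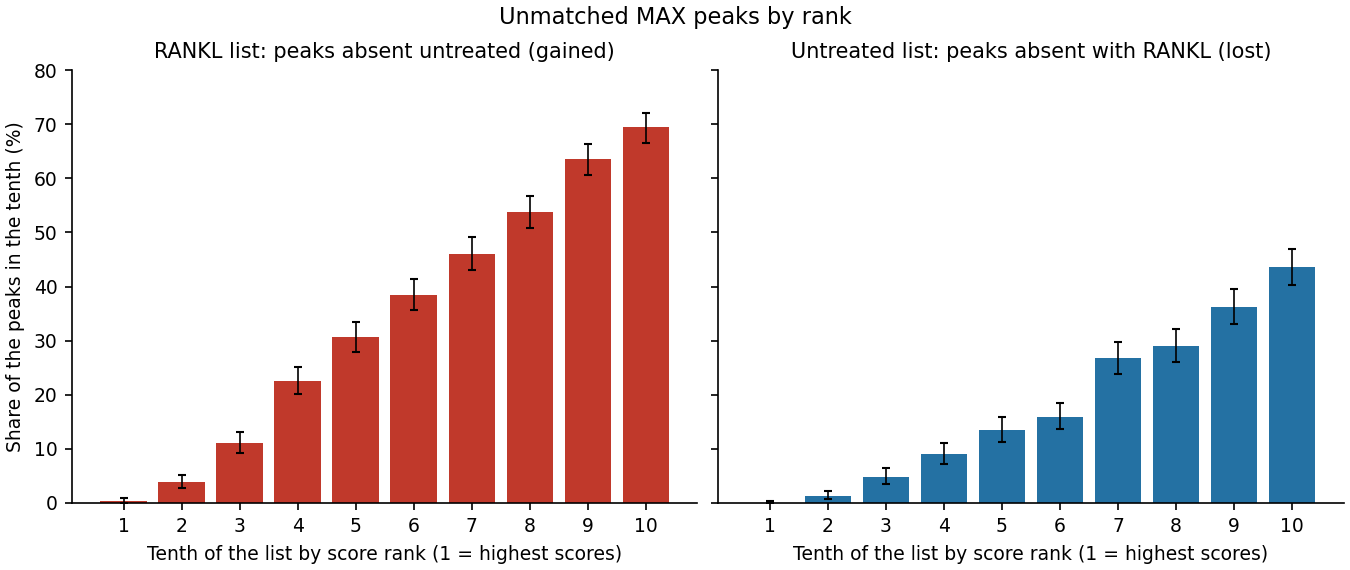
Share of unmatched MAX peaks (y axis, % of the peaks in a class) by rank class, 10 equal parts of the list in order of score (x axis, 1 is the highest). The left panel gives gained peaks in the RANKL list and the right panel lost peaks in the untreated list, with exact 95% intervals as bars. The share is 69.4% in class 10 of the RANKL list and 43.6% in class 10 of the untreated list.

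Gained and lost peaks lay away from gene ends more often than kept ones. Position was read in order: within 1 kb of an annotated end of a protein-coding gene (gene end), else inside such a gene (gene body), else intergenic. Gene ends held 40.5% of gained peaks (38.9 to 42.1), 36.9% of lost peaks (34.5 to 39.3) and 55.8% of kept peaks (54.6 to 56.9). Gene bodies held 35.3% of gained, 36.5% of lost and 26.0% of kept peaks. Intergenic stretches held 24.3% of gained, 26.6% of lost and 18.2% of kept peaks. Read the other way, 27.2% of RANKL peaks at gene ends were gained (26.0 to 28.4), against 41.1% of those in gene bodies and 40.7% of those between genes. For loss from the untreated list the shares were 12.7% at gene ends (11.8 to 13.7), 23.2% in gene bodies and 24.4% between genes.

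The difference in position was also present within rank classes. In class 5 of the RANKL list, 41.02% of gained and 54.04% of kept peaks lay at a gene end, and in class 10 these were 42.5% and 52.3%. In the untreated list 31.9% of lost and 54.5% of kept peaks lay at a gene end in class 5, and 41.8% and 52.5% in class 10. Gene ends include 3′ ends: of the peaks at a gene end, 365 of 1497 gained, 138 of 587 lost and 750 of 4009 kept peaks had no RefSeq transcription start within 1 kb.

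Both kinds of unmatched peak were narrow. Median width was 401 bp for gained peaks (397 to 405) and 538 bp for kept peaks of the RANKL list. Lost peaks had a median of 362 bp (356 to 368), and kept peaks of the untreated list had one of 468 bp. The widest gained peaks lay at Clcn4 (a chloride-proton exchanger, 1304 bp), Setd1a (a histone H3 lysine 4 methyltransferase, 1303 bp), Otub1, Etv1, Far1, the shared end of Cyba and Mvd, Khsrp, Nudt19, Them6 and Creb1 (1136 bp). Setd1a held rank 4737 and Them6 rank 10434 of the 10889. Among the widest lost peaks were those of Srpk1 (a splicing factor kinase, 1026 bp), Eri1 (1016 bp), Ddit3 (the stress-induced factor CHOP, 850 bp), Sesn1 with Cep57l1 (841 bp), Cnpy4 with Mblac1, Pigg, Ldah and Rap2a, and an intergenic peak nearest to Adra2a.

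**Figure D2:**
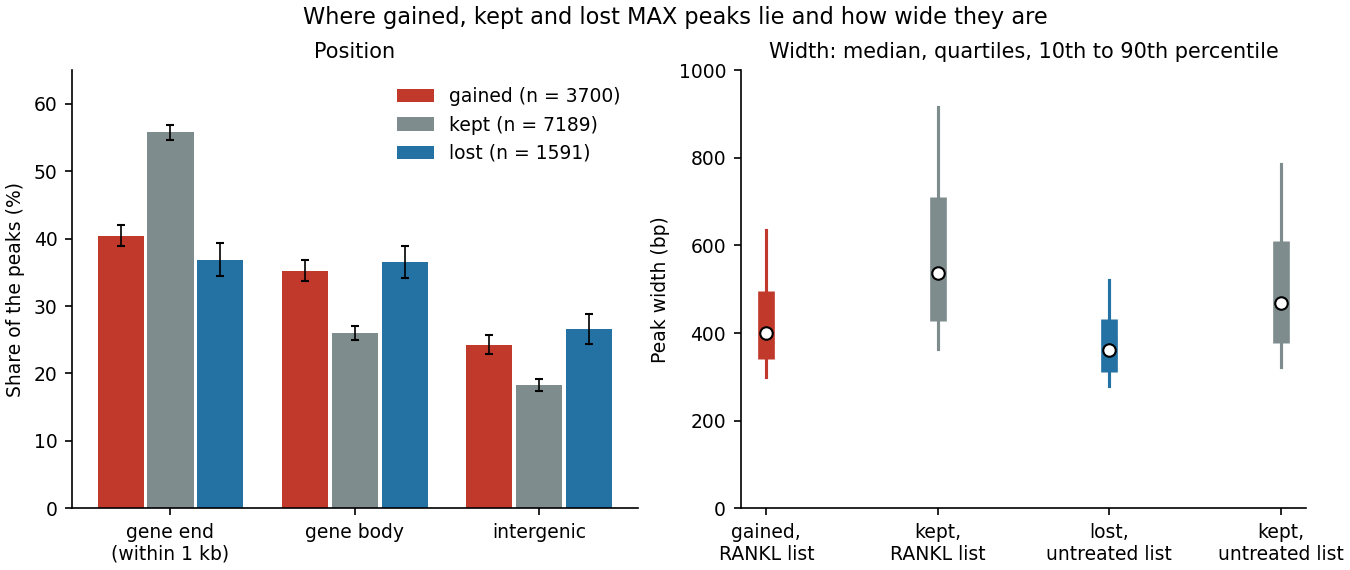
Left, share of gained, kept and lost MAX peaks at gene ends, in gene bodies and between genes (y axis, %), with exact 95% intervals. Right, peak width in bp (circle, median; thick bar, quartiles; thin line, 10th to 90th percentile). Kept peaks have 55.8% at gene ends, against 40.5% of gained and 36.9% of lost peaks, and are wider than either.

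The highest-ranked gained peaks at gene ends lay at genes of varied function. Kbtbd6, a substrate adaptor of a cullin ubiquitin ligase, led with rank 1085 (chr14:79451641-79452228, mm10). It was followed by Snapin, which takes part in vesicle fusion and lysosome positioning, at 1431 and Adamts6, a secreted metalloprotease, at 1636. Mks1, of the ciliary transition zone, held 1715 and Ccz1, which helps activate Rab7 on late endosomes, 1784. After Fam167b came Foxo3, a forkhead factor, at 1923, and after Mtx3 the low-affinity IgG receptor gene Fcgr3 at 2032. Ap2s1, a subunit of the clathrin adaptor AP-2, closed the set of 12 at 2094. All 12 were also listed with I-BET alone, and 9 of the 12 were also listed with RANKL and I-BET together, all but Snapin, Adamts6 and Mks1.

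Fcgr3 carried 2 gained peaks and 1 kept peak. One gained peak lay in the gene body (chr1:171063875-171064301) at rank 1060, the highest of any gained peak in a gene body, and the other lay at the gene end at 2032. Between them stood the kept peak, at rank 3066 with RANKL and 864 in untreated cells. So Fcgr3 counts among genes with a peak in both lists.

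Other gene-body peaks high among those gained lay in Bdh2 (rank 1126), Usp36, a nucleolar deubiquitinase (1134), Smad3, a transducer of TGF-beta signals (1136), Senp7, a SUMO protease (1143), Abcc6, Sbf2, Cdc42bpg, Gpr107, Nfic, Atf7ip and Kiz (1790). Between genes, the top gained peak of all (rank 699, chr7:45403466-45403920) lay 2040 bp from Kcna7. It was followed by peaks nearest to Psmd1, Wnt8b, Tmem158, Rfx7, Pik3r1, Lypd4, Elk3, Rfc3, Clpb, Il1rl1 and Btg2 (2231).

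Lost peaks at gene ends were led by Tmed9, a cargo receptor of the early secretory pathway, at rank 1408 of the untreated list (chr13:55592925-55593323). Next stood B230219D22Rik at 1643 and Tomm7, a subunit of the outer-membrane import complex of mitochondria, at 1711. After the peak of Abhd17b came Slc39a3, a zinc importer, at 2447, Ypel5 at 2460, Mindy1, a deubiquitinase, at 2511, Rnd2, a small GTPase, at 2537 and Selenok, a selenoprotein of the endoplasmic reticulum, at 2587. Ergic3, Donson with Cryzl1, and Rufy1 completed the 12, of which all were listed with I-BET alone. With RANKL and I-BET together, 4 of the 12 were listed (B230219D22Rik, Slc39a3, Mindy1 and the shared peak of Donson and Cryzl1).

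In gene bodies the highest-ranked lost peak lay in Ccz1 (rank 1166, chr5:144002765-144003215), the gene whose end had a gained peak. It was followed by peaks in Peak1 (1543), Ccnd2, the gene of cyclin D2 (1599), Gdpd5, Thada, Appl2, Plcb4, Magi1, Scp2, Lmna (lamin A and C, 1991), Gatad2a and Itpkb (2138). Intergenic lost peaks were led by those nearest to Cep43 (rank 1135, the highest of all lost peaks), St3gal1, Foxe3, Aacs, Lgmn, Slc2a8, Ubl3, Samsn1, Ndufb4, C4b, Tfe3 and Nrros. The peak nearest to Tfe3, an E-box factor of lysosome genes, lay 1201 bp from it at rank 2349.

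A few genes had gained and lost peaks side by side. Ypel5 lost the peak at rank 2460 and had a gained one at rank 6038 in its promoter, and Trem2, the myeloid receptor that signals through DAP12, had a lost peak at rank 8112 and a gained one at rank 9952. Counted over whole genes with 1 kb around them, 2361 genes had 1 gained peak, 285 had 2, 48 had 3 and 16 had 4 or more. For lost peaks 1096 genes had 1, 78 had 2, 13 had 3 and 1 had 4. The genes named next were chosen after their values were seen, and long genes have more room for peaks. Cdk6, a G1 kinase, had 5 gained, 2 kept and 2 lost peaks over 190005 bp, all inside the gene. Mitf, the osteoclast and melanocyte factor, had 4 gained peaks in its body and 2 kept peaks over 214359 bp. Runx1, a haematopoietic regulator, had the most lost peaks, with 4 lost, 2 gained and 2 kept over 224609 bp.

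Kept peaks were mostly the same intervals, somewhat wider with RANKL. There were 7306 overlapping pairs, with midpoints a median of 45 bp apart, and 91.9% of them overlapped by at least 50% of both peaks. The width with RANKL over that in untreated cells had a median ratio of 1.12 (10th to 90th percentile 0.809 to 1.72), and 68.2% of pairs were wider with RANKL. Over 2-fold wider with RANKL were 5.52%, and over 2-fold wider in untreated cells were 1.01%. Pairs are matched by overlap, which limits how far their midpoints can lie apart. The rank correlation was 0.664 (Spearman, across 7306 pairs, which are not replicates and share their libraries), and 40.5% of pairs stayed within 10 points of rank percent. A RANKL rank at least 25 points higher was seen in 19.3% of pairs and one at least 25 points lower in 9.53%, where the RANKL list has its gained peaks mostly at low ranks, which moves the kept ones up.

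Among the kept peaks at gene ends that ranked highest with RANKL relative to untreated cells, Bola1, a mitochondrial iron-sulphur cluster factor, had a rank percent of 16.4 with RANKL and 95 in untreated cells. The shared peak of Qtrt2 and Ccdc191 had 6.02 with RANKL and 82.7 in untreated cells, and Ankrd28, a scaffold of a protein phosphatase, had 5.79 and 78.2. The other 5 were Ube2g2, Cdipt, Clk2, Ddx42 with Ccdc47, and Cdk5rap2. Among those with the opposite shift, Dmxl2, which helps assemble the V-ATPase, had a rank percent of 90.6 with RANKL and 14.1 in untreated cells. Ndufab1, the mitochondrial acyl carrier protein, had 97.5 with RANKL and 25.6 in untreated cells. The remaining 6 were Luzp1, Sf3b2 with Pacs1, Cct5 with Atpsckmt, Hs6st1, Aak1 and Rae1. Only pairs outside chromosome 18 in which each peak was the best partner of the other entered this choice.

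**Figure D3:**
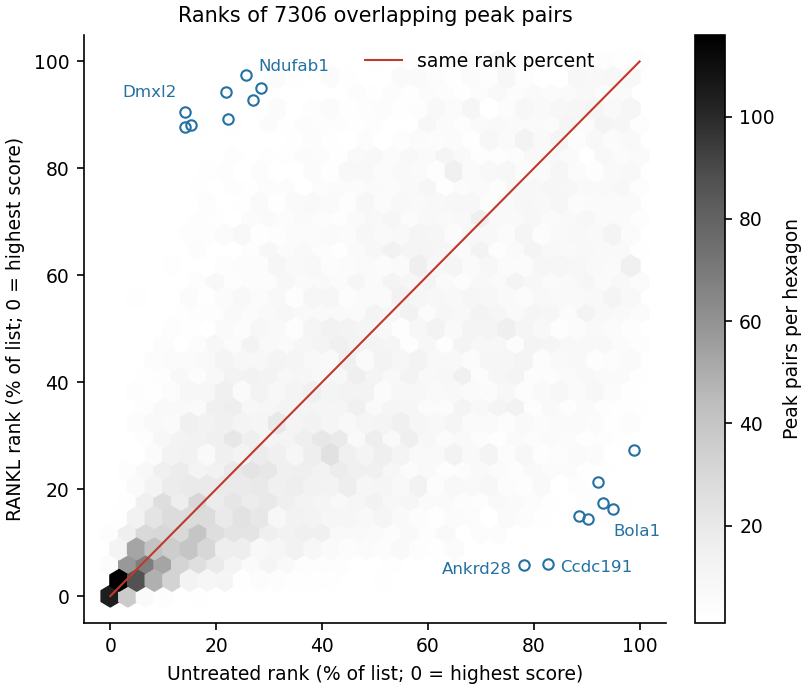
Rank of kept MAX peaks with RANKL (y axis, % of the list) against rank in untreated cells (x axis, % of the list), where 0 is the highest score. Grey hexagons count the 7306 pairs and the line marks equal rank percent. Circles mark the 8 gene-end pairs that moved up most (lower right, with Bola1) and the 8 that moved down most (upper left, with Dmxl2). Pairs on chromosome 18 were not marked.

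The lists of the other treatments divide the peaks in different ways. The I-BET list of MAX holds 36785 peaks, and it overlapped 93.2% of gained, 91.5% of lost and 98.8% of kept peaks. So nearly all sites gained or lost with RANKL were listed in cells that had not seen RANKL but had seen the inhibitor. The list of RANKL with I-BET holds 6307 peaks, and it overlapped 18.2% of gained (16.9 to 19.4), 16.7% of lost (14.9 to 18.6) and 68.3% of kept peaks. Within rank classes kept peaks also had the larger share. In class 5 of the RANKL list 27.5% of gained and 63.6% of kept peaks had such an overlap, and in class 10 these were 8.99% and 25.8%. In class 5 of the untreated list it was 26.9% of lost and 63.1% of kept peaks. These lists differ in length and share no replicate, so the shares describe the lists only.

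MYC peaks coincided with kept MAX peaks and hardly with unmatched ones. The MYC list with RANKL (299 peaks) overlapped 4 gained MAX peaks (0.108%), 6 lost ones (0.377%) and 276 kept ones (3.84%). Over all MAX peaks it overlapped 2.57% of the RANKL list and 3.19% of the untreated list. The untreated MYC list (312 peaks) overlapped 4 gained, 6 lost and 284 kept MAX peaks. Kept MAX peaks also ranked higher than unmatched ones, and the overlap with MYC was not compared within rank classes. The top gained peak, near Kcna7, was one of those with MYC: it held MYC rank 89 with RANKL and no MYC peak in untreated cells. The gained peak near Rfx7 held MYC rank 266 with RANKL and likewise none in untreated cells. The other way round, the gained MAX peaks at the shared end of Hmbox1 and Ints9 and nearest to Kif2c had no MYC peak with RANKL and held MYC ranks 232 and 258 in untreated cells. At 9430015G10Rik and at Gm52481 on the Y chromosome MYC was listed in both, at ranks 54 and 3 with RANKL and at 49 and 29 in untreated cells. The 6 lost peaks with MYC, in Zc3h7a, Cmss1 with Filip1l, Cdk8 and Peak1 and nearest to Samd9l and Gm52481, had MYC peaks in both treatments. Their MYC ranks ran from 13 to 98 with RANKL and from 6 to 138 in untreated cells. The MAX peaks there held untreated ranks from 2740 (Cdk8) to 8142 (Peak1). Signal of the input libraries was not read at any of these sites, so background enrichment there was not tested.

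Counted by genes, 4604 protein-coding genes had a MAX peak at an end in both lists, 1484 with RANKL and not in untreated cells, 576 in untreated cells and not with RANKL, and 15223 in neither. Of the 16707 genes without an untreated peak, 8.88% had one with RANKL, and of the 5180 with an untreated peak, 11.1% had none with RANKL. Between equal numbers of top-ranked peaks the counts were 946 genes gained and 961 lost. Many of the 16707 have no MAX peak in any list. Of the 5828 with a peak in the I-BET list and none in untreated cells, 25.3% were gained, and the gene lists below are read beside both values. A gene with an end peak in both lists counts as such even where it also has an unmatched end peak. The lists are described by counts, and members that share a peak are counted apiece.

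RANK receptor and costimulatory signalling had a MAX peak at 25 of 38 genes with RANKL and at 17 in untreated cells. Of the 21 without an untreated peak 9 were gained (42.9%), and of the 15 of these with an I-BET peak also 9 (60%). In order of RANKL rank they were Plcg2 (3336), Traf6, the adaptor that RANK recruits (4979, chr2:101678267-101678598), the kinase gene Akt1 (5470), Oscar, a costimulatory receptor (6206), the adaptor gene Grb2 (7282), Fcer1g, the FcR gamma chain that Oscar signals through (7522), the kinase gene Tec (9197), Traf2 (9285) and Ppp3r1, the regulatory subunit of calcineurin (10814). Mapk3 (ERK1) was lost, at untreated rank 4724. Most of the gained peaks ranked low, and between equal numbers of peaks 6 genes were gained. Tyrobp, the other costimulatory adaptor (DAP12), had a kept peak at rank 1242 with RANKL and 4721 in untreated cells. Tnfrsf11a, the gene of RANK itself, had no peak at an end and a gained one in its body at rank 6121.

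Bone resorption and cell fusion genes carried few MAX peaks, at 6 of 30 genes with RANKL and 2 in untreated cells. Gained were Gsn, which severs actin filaments (5320), Oscar, Rab7, which drives fusion with late endosomes (7766), Tcirg1, the osteoclast subunit of the V-ATPase (9283, shared with Ndufs8) and Sh3pxd2b, a podosome scaffold (10075). These are 5 of 17 with an I-BET peak and no untreated one (29.4%), and 3 genes were gained between equal numbers of peaks. Slc4a2, the anion exchanger that partners acid secretion, kept its peak at rank 1687 with RANKL and 1165 in untreated cells. Ctsk, the collagen-degrading protease of osteoclasts, lost both of its peaks. One lay in the body at untreated rank 2541 (chr3:95504700-95505029). The other, at rank 3141, lay within 1 kb of an end of Ctsk and also of Arnt.

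Osteoclast transcription regulators had a peak at 18 of 31 genes with RANKL and at 15 in untreated cells. Gained at an end were Bcl6, a repressor (8128), Creb1 (8550) and Irf8, which restrains osteoclast formation (9500), and no gene was lost. These are 3 of 10 with an I-BET peak and no untreated one (30%, against 25.3% over all genes). Only 15 genes had an untreated peak to lose. Irf8 also has a kept body peak at rank 1406 with RANKL and 4374 in untreated cells. Nfatc1, the master regulator, had 2 kept peaks and 1 gained peak (rank 3998) inside the gene and none at an end. Its kept peaks held ranks 2563 and 4944 with RANKL and 387 and 5896 in untreated cells. Fos and Jun had no MAX peak in either list, while Junb held rank 176 with RANKL and 104 in untreated cells, and Fosl2 1191 and 1192. Mitf kept its end peak at 3187 with RANKL and 3708 in untreated cells, and Tfeb, a relative that drives lysosome genes, had 2 kept and 1 gained peak in its body.

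Genes of the NF-kB pathway and its targets had a peak at 23 of 45 with RANKL and at 17 in untreated cells. Of the 21 with an I-BET peak and no untreated one 9 were gained (42.9%), and 4 between equal numbers of peaks. The highest-ranked were Nfkbie, an inhibitor of NF-kB (3051), the cytokine gene Il10 (3795), the chemokine genes Cxcl10 (7182) and Ccl9 (7834), Traf2 (9285) and Nfkb1, the p105 precursor (9376). The other 3 were Birc3, Csf1 and Map3k8. Chuk, the kinase IKK alpha, Relb, its downstream partner in the alternative pathway, and Tnip2 were lost at untreated ranks 6568, 8271 and 8537. Among kept peaks, Rel stood at rank 1496 with RANKL and 4341 in untreated cells, and Nfkbia at 3259 and 1997.

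Lysosomal genes were among those gained. Of the 13 enzyme and 14 membrane or V-ATPase genes with an untreated peak 0 were lost, against 11.1% over all genes. Other lists of like size also lost 0, among them the osteoclast regulators (of 15) and the tRNA synthetases (of 15). Atp6v1a, a V-ATPase subunit with a kept end peak, also had a lost one at untreated rank 6219. Enzymes had a peak at 19 of 32 genes with RANKL and 13 in untreated cells, with 6 gained, among them Gusb (3180), Neu1 (4766), Ctsz (5156), Gm2a (8059) and Psap (9726), which degrade glycans, proteins and sphingolipids or help to. Membrane proteins and V-ATPase subunits had 18 of 26 with RANKL and 14 in untreated cells, with Npc1, which exports cholesterol (2830), Atp6v1h (4925), Atp6v1f (7488) and Tcirg1 gained. The gained shares among those with an I-BET peak and no untreated one were 37.5% and 36.4%. Lamp1 led the kept peaks of the lysosomal membrane, at rank 178 with RANKL and 327 in untreated cells. Autophagy genes had 19 of 27 with RANKL and 16 in untreated cells, with Atg12, Ulk1 (the initiating kinase), Calcoco1 and Gabarapl2 gained and Atg101 lost. Their gained share among those with an I-BET peak and no untreated one was 4 of 9 (44.4%). In the list of E-box factors of the MiT/TFE, USF and bHLH families 7 of 17 genes had a peak with RANKL and 8 in untreated cells. Of these 17 genes 0 were gained and Arnt was lost. Only 6 of the 17 had an I-BET peak and no untreated one. The peak lost at Arnt was the one within 1 kb of both Arnt and Ctsk, and it lay outside both genes.

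In the MYC and MAX network, 8 of 13 genes had a peak with RANKL and 7 in untreated cells. Max itself kept a peak of 1151 bp at its end (chr12:76961927-76963077), at rank 503 with RANKL and 712 in untreated cells. The repressor gene Mnt kept its end peak at 1410 with RANKL and 1058 in untreated cells, and Mga at 1730 and 4835. Mxd1 stood at 7395 with RANKL and 7794 in untreated cells. Mxi1, another MXD family repressor, gained an end peak at rank 9343 and kept 2 body peaks, at ranks 1427 and 1741 with RANKL and 2036 and 2678 in untreated cells. Myc and Mlx had no MAX peak at an end or in the body in either list.

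Most genes of ribosome building and translation had a MAX peak in both lists. Ribosome biogenesis genes had a peak at 46 of 50 in each, with 0 gained and 0 lost. Only 4 lacked an untreated peak, so few could be gained, and the lost share over all genes was 11.1%. Their median rank percent was 11.2 with RANKL and 14.7 in untreated cells, against 43.6 and 44.6 over all genes with a peak. Translation factors stood at 34 of 36 in each, with Eif3d gained (3472) and Eif3i lost (6531), both subunits of the initiation factor eIF3. Cytosolic ribosomal proteins had 48 of 55 with RANKL and 50 in untreated cells, with Rpl28 gained (8632) and Rps16 (3071), Rps15 (3799) and Rpl24 (5396) lost. Of genes with an untreated peak, 2.94% of the translation factors and 6% of the ribosomal proteins were lost. Aminoacyl-tRNA synthetases, which charge tRNAs, had 20 of 22 with RANKL and 15 in untreated cells. Gained were 5 of the 7 without an untreated peak (71.4%, against 8.88% over all genes). Of the 6 of these with an I-BET peak it was also 5 (83.3%, against 25.3%). The 5 gained, Hars, Rars, Nars, Kars and Cars, ranked between 7204 and 10578, in the lower part of the list, and 2 were gained between equal numbers of peaks.

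Mitochondrial genes were found among the gained and among the lost. Genes of the mitochondrial ribosome and of import had 34 of 42 with RANKL and 32 in untreated cells. Tomm40, the import channel (3190), Mrps10, Tfam, which packages mitochondrial DNA (8234), Mrps34 and Tomm22 were gained, and Tomm7 (1711), Timm23, the inner-membrane channel (6843), and Mrpl37 (7863) were lost. Respiratory chain subunits had 21 of 43 with RANKL and 16 in untreated cells. The 8 gained, among them Atp5c1, Uqcrc2, Cox4i1, Atp5o, Ndufb3, Ndufs8 and Atp5b, held ranks of 6081 to 9782, and lost were Cox5b (5350), Ndufs3 and Cox10. Of genes with an I-BET peak and no untreated one, 5 of 8 for ribosome and import were gained (62.5%). For the respiratory chain it was 8 of 25 (32%), against 25.3% over all genes. Lost were 3 of 32 and 3 of 16 with an untreated peak (9.38% and 18.8%), against 11.1%.

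Among other metabolic genes, those that make nucleotides, one-carbon units and polyamines had 31 of 35 with RANKL and 27 in untreated cells, with 4 gained, among them Oaz1, Adsl and Sms, and 0 lost. Glycolysis and glucose uptake had 19 of 26 with RANKL and 17 in untreated cells, with Tpi1 (5304), the lactate exporter gene Slc16a3 (8381) and Pgk1 (8986) gained and Taldo1 lost. Sterol and fatty acid synthesis had 16 of 28 with RANKL and 17 in untreated cells, with Msmo1 and Acly gained and Mvk, Scd1 and Stard4 lost. Of genes with an I-BET peak and no untreated one, 4 of 8, 3 of 6 and 2 of 9 were gained in the same order. Over all genes it was 25.3%. Lost were 0 of 27, 1 of 17 and 3 of 17 with an untreated peak, against 11.1%.

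Cell cycle and replication genes had a peak at 27 of 39 with RANKL and at 23 in untreated cells. Cdc6, which loads the replicative helicase, ranked highest among the 6 gained (2655), before the helicase subunit gene Mcm6 (4459), the mitotic kinase gene Aurkb (7408), Mcm4 (7444), Cdk2 (8821) and Rfc3, a clamp loader subunit (10548), and Mcm5 (7979) and Gins1 (8748) were lost. Of cell cycle genes with an I-BET peak and no untreated one, 6 of 14 were gained (42.9%, against 25.3% over all genes). Of those with an untreated peak, 2 of 23 were lost (8.70%, against 11.1%). The proteasome had 18 of 31 with RANKL and 14 in untreated cells, with Psmb2, Psmc3, Psmb1, Psmd8, Psmb4 and Psmd6 gained and Psmc6 and Psmc4 lost. There the shares were 6 of 16 gained (37.5%) and 2 of 14 lost (14.3%). Stress response genes had 25 of 34 with RANKL and 22 in untreated cells, where Hspa13, Xbp1, Chac1 and Hspa5 (the chaperone BiP) were gained and Eif2ak4 (the amino acid sensor GCN2) lost. Nuclear pore and transport genes had 24 of 32 in each list, with Nup43 gained and Tnpo1 lost. The clock list had 13 of 20 with RANKL and 12 in untreated cells, with Hlf and Clock gained and Csnk1d lost. BET proteins, P-TEFb and elongation factors had 23 of 38 with RANKL and 20 in untreated cells, with Med23, Ell2, Hexim1 and Nelfb gained and Leo1 lost. JmjC histone demethylases had 8 of 19 with RANKL and 7 in untreated cells, with Jmjd1c (3880) and Kdm3b gained and Kdm8 lost. Among genes with an I-BET peak and no untreated one, the gained share was 36.4% for stress response and 23.5% for the BET list. It was 20% for the demethylases, 1 of 6 for nuclear pores and transport and 2 of 4 for the clock list.

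Macrophage identity and receptor genes had a peak at 21 of 45 with RANKL and at 17 in untreated cells. Gained were Fcgr1, the high-affinity IgG receptor (2549), Irf5 (7095), Csf2ra (8912), Irf8 and the lysozyme gene Lyz1 (9675), and its near-identical copy Lyz2 was lost (5434). Reads of 50 bp may be hard to place between such copies, as they may at H2-D1. Of those with an I-BET peak and no untreated one the gained share was 23.8%. The lineage factor Spi1 (PU.1) kept its peak at rank 742 with RANKL and 691 in untreated cells, and Cebpa at 533 and 711. Other markers ranked lower, with Cebpb kept at 4479 with RANKL and 3368 in untreated cells. Cd68 had kept end peaks at 7865 and 8240 with RANKL and 5390 and 7360 in untreated cells. In 23 of the 45 genes neither list had an end peak. Interferon and antigen presentation genes had 17 of 48 with RANKL and 11 in untreated cells. Their gained share among those with an I-BET peak and no untreated one was 28%. Ifngr1 (4927), the shared peak of Psmb8 and Tap1 (5706), H2-D1, Irf1 (9029), Usp18 and Psme2 were gained. Ifngr2, the other chain of the interferon gamma receptor, was lost (8818).

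Germ cell genes that MAX and MGA silence in other cells stood at 6 of 30 in each list, with 0 gained and 0 lost. Of those without an untreated peak only 1 had an I-BET peak, and only 6 had an untreated peak to lose. Lists for other cell types were nearly empty. Neuronal markers had 1 of 28 with RANKL (Camk2a) and 0 in untreated cells, hepatocyte markers 1 of 27 in each, lymphocyte markers 2 of 22 in each (Cd3d gained, Cd79a lost), fibroblast and osteoblast markers 0 of 21 with RANKL and 1 in untreated cells (Spp1) and neutrophil and dendritic markers 2 of 20 in each (Mmp8 gained, Prtn3 lost). A peak at a marker gene says nothing of its expression.

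**Figure D4:**
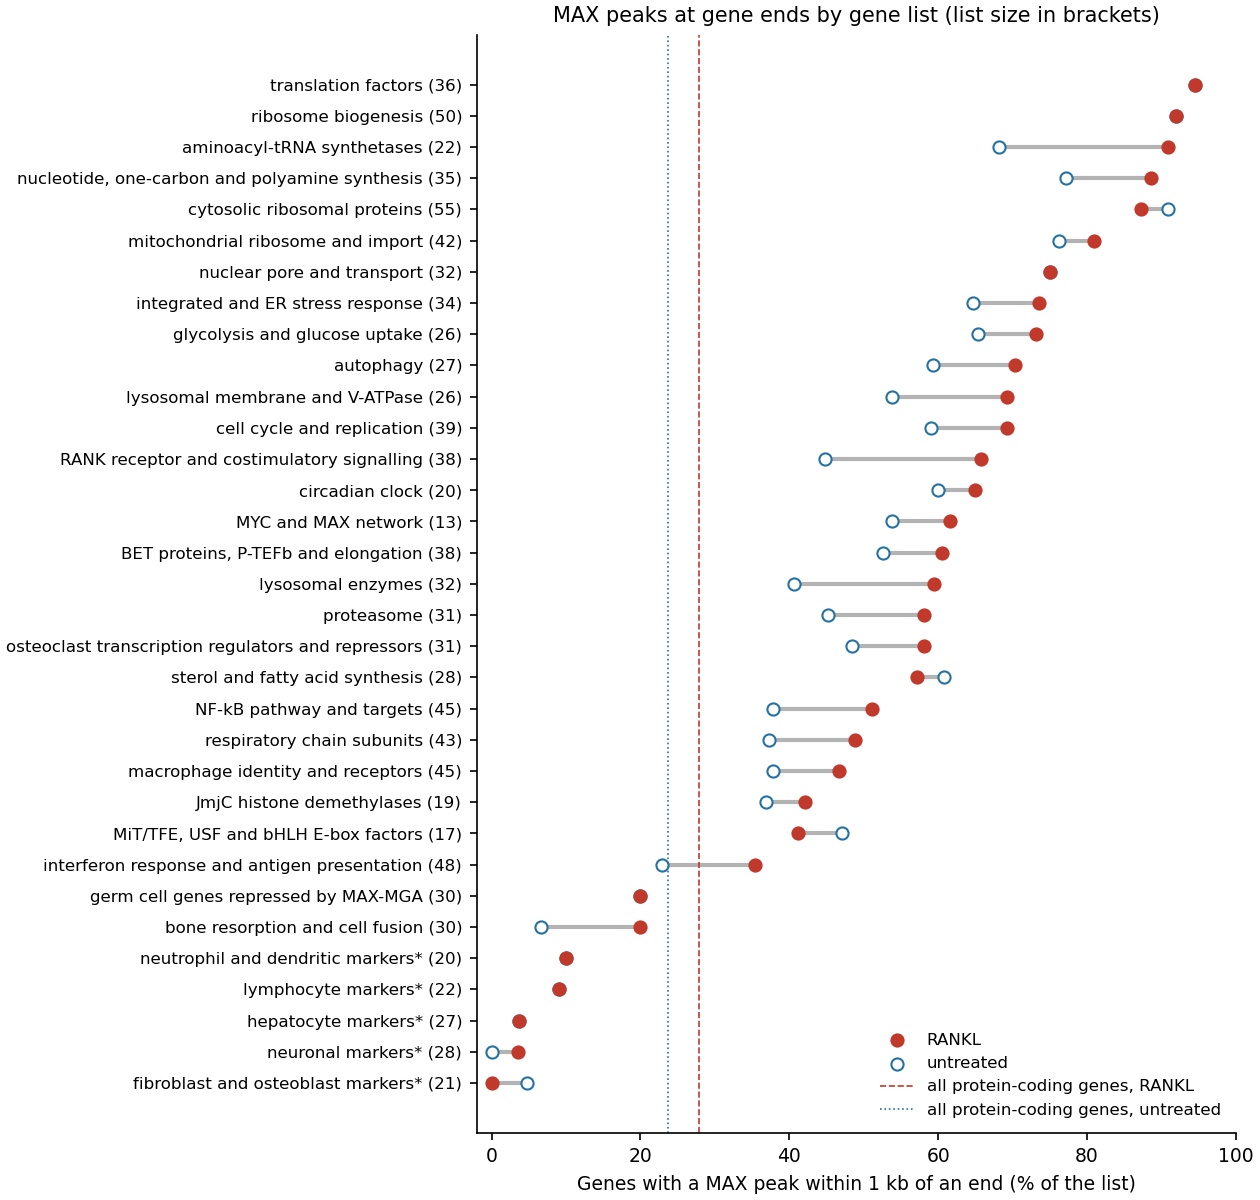
Share of the genes of each list with a MAX peak within 1 kb of an end (x axis, %), with RANKL (filled) and in untreated cells (open), and list sizes in brackets. Asterisks mark lists for other cell types, and vertical lines give all protein-coding genes. Most lists lie to the right in the RANKL list, and the aminoacyl-tRNA synthetases (20 of 22 against 15) and RANK signalling (25 of 38 against 17) are the farthest apart.

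The E-box stood in a smaller share of promoters under gained and lost peaks than under kept ones, and within rank classes the shares overlapped. Of 32817 distinct promoter windows 1425 were reached by a gained peak, 546 by a lost peak and 4414 by peaks of both lists. The core CACGTG, which reads the same on both strands, was in 9.12% of windows under gained peaks (7.68 to 10.7), in 9.71% under lost peaks (7.36 to 12.5) and in 19.1% under kept peaks (18 to 20.3). Windows with no MAX peak had it in 5.0% and all windows in 7.15%. With each list divided into 5 rank classes, the intervals of gained and kept peaks overlapped in every class of the RANKL list, and those of lost and kept peaks in every class of the untreated list. In class 2 of 5 of the RANKL list the core was in 25 of 125 windows under gained peaks (20%, 13.4 to 28.1) and in 16.5% under kept peaks (14.3 to 18.9), and in class 5 in 6.08% and 6.92%. In class 3 the shares were 10.5% under gained and 14.4% under kept peaks, and in class 4 they were 8.03% and 10.9%. Class 1 had 9 gained windows, of which 5 held the core, and 2 lost windows, of which 0 did. In class 4 of the untreated list the core was in 11.9% of windows under lost peaks (7.43 to 17.8) and in 11.04% under kept peaks (8.90 to 13.5), while in class 3 it was in 7.06% under lost and 13.9% under kept peaks. Among the higher-scoring peaks alone, 5444 with RANKL and 4419 in untreated cells, the core was in 14.5% of windows under gained, 15.2% under lost and 26.3% under kept peaks. These cut lists were matched anew, so gained and lost there include peaks whose partner scored below the cut.

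**Figure D5:**
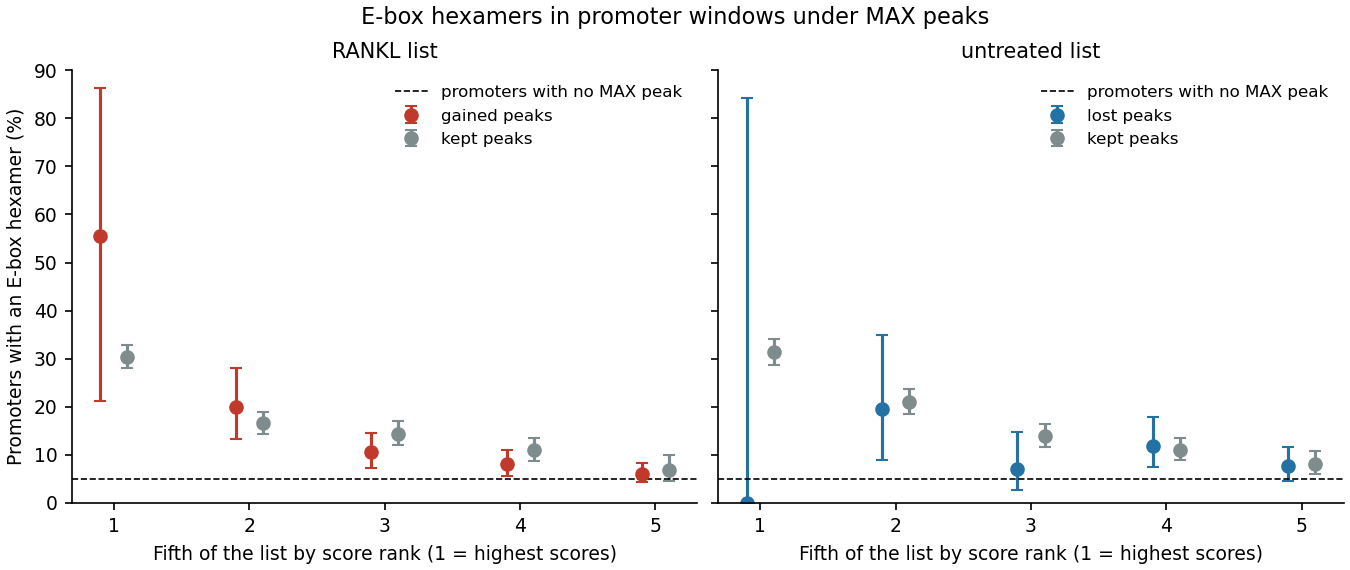
Share of promoter windows that hold CACGTG (y axis, %) by rank class, 5 equal parts of the list in order of score (x axis, 1 is the highest), with exact 95% intervals. Left, gained and kept peaks of the RANKL list; right, lost and kept peaks of the untreated list. The dashed line is the 5.0% of windows with no MAX peak. In class 5 of the RANKL list the share is 6.08% under gained and 6.92% under kept peaks.

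The related site CACGCG, searched on both strands, was in 19.7% of windows under gained, 16.1% under lost and 28.4% under kept peaks, against 5.30% of windows with no MAX peak and 9.26% of all. The GC box GGGCGG was in 68% under gained, 64.7% under lost and 72.8% under kept peaks. Of windows with no MAX peak 26.8% had it, and of all windows 35.6%. In class 4 of 5 of the untreated list it was in 60.1% under lost peaks (52.3 to 67.6) and 71.5% under kept peaks (68.1 to 74.7). In class 5 these were 66.4% (60.2 to 72.2) and 77.5% (73.9 to 80.9). In the other classes of both lists the intervals overlapped. CCAAT did not set the sets apart, with 35.5% under gained, 38.8% under lost and 35.9% under kept peaks and 37.7% of windows with no peak. Base composition moved with these shares: a window had a median of 24 CpG under gained, 22 under lost and 26 under kept peaks, and 5 with no peak, and the part of composition in the motif shares was not tested. The E-box core was also placed. It occurred 0.631 times per kb within 50 bp of the midpoint of gained peaks, 0.524 at lost and 1.25 at kept peaks. At 200 to 300 bp it occurred 0.150, 0.0384 and 0.450 times per kb, the lost value resting on 1 match. GGGCGG was spread more evenly, with 6.22, 5.43 and 6.68 per kb near the midpoint and 4.43, 3.76 and 5.12 at the longer distance.

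Gained and lost peaks were spread over all chromosomes. Leaving out Y, which has 4 peaks with RANKL and 3 in untreated cells, the gained share ran from 30.3% on chromosome 15 to 43.6% on X (41 of 94), and the lost share from 14.7% on chromosome 3 to 25.7% on X (19 of 74).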

How the data were processed

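The 2 MAX peak lists were used as the authors deposited them, with the score per peak as the authors' own value, and FastQC, Bowtie2 2.3.4.1, MACS2 2.1.1.20160309 and the builds mm10 and GRCm38 are named in the submitters' processing notes. Thresholds for calling: not given in the sources used here, nor is the use of input. Starts were raised by 1 on the assumption that the deposited lists follow the BED convention, and the score was used for ranks only. Genes are the 21887 protein-coding genes of the RefSeq table (GRCm38.p6, without strand), and sequences are RefSeq promoter windows, which exist for 17492 of these genes (79.9%). All 1050 entries of 33 gene lists matched. Members and lists were chosen with earlier results of these data known. Named genes are the top 12 gained and lost peaks per position class, the 8 kept gene-end peaks that moved up and down most, the 10 widest gained and lost peaks, list members that were gained or lost (all where 8 or fewer, else the top 6), and 16 regulators, and a few more were picked with their values in view. Peaks on chromosome 18 were left out of the top-ranked, most-moved and widest sets, of the named MYC overlaps and of the sequences. Overlaps gave 0 differences from bedtools 2.31.1, with Python 3.11.15, pandas 2.3.3 and scipy 1.17.1. Alternatives covered windows, overlap, list length and width, and the start-site reading, the list counts and the E-box shares were added after the data were seen. Some genes that the rule selects are not reported here.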

Additional observations from a re-analysis of the deposited data

How the results depend on the processing

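No paired analysis was possible because each treatment has 1 MAX library by the labels. Leaving out a replicate could not be done for the same reason. Of the 56 values recomputed for counts, shares and median ranks, 31 stayed within 1.5 times the count or within the 95% interval, and 25 moved out of these limits. The 31 include every value of the setting that leaves out peaks under 100 bp. No peak is that narrow, so those values could not move and say nothing of how stable the results are. Matching peaks within 250 bp moved no value out of the same limits. Gene-end shares of gained, lost and kept peaks were 35.2%, 31.6% and 51.7% with a window of 0.5 kb, 48.3%, 45.6% and 62.7% with 2.5 kb, and 37.9%, 34.4% and 53.5% with transcription starts, chosen after the data were seen. Kept peaks had the largest share in each of these. With reciprocal overlap of 50% the gained and lost shares were 43.2% and 43.6%, with median rank percents of 71.5 and 73.5. Among the 5444 highest-scoring peaks with RANKL and the 4419 in untreated cells, 1968 peaks were gained and 930 lost, with gene-end shares of 46.6%, 47.0% and 58.1% for gained, lost and kept peaks and median ranks of 35.7 and 37.2. Between equal numbers of top-ranked peaks 2326 were gained, at a median rank of 60.0, the lost share at gene ends was 41.8%, and 946 genes were gained and 961 lost. Fewer peaks enter these last 2 settings by construction. The cut lists were matched anew, so a peak whose partner fell below the cut counts as gained or lost. Their gained and lost peaks are thus not only those described above. With the highest-scoring peaks only, gained genes numbered 0 for the proteasome, 1 for bone resorption, 3 for the tRNA synthetases, 4 for NF-kB and 5 for RANK signalling. The E-box shares there were 14.5%, 15.2% and 26.3% for gained, lost and kept peaks. One library per treatment and an unknown depth limit every comparison.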
